A study of Mus musculus with 6 samples.

Results

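The 10 genes described here encode transcription factors of the AP-1 group (Fos, Fosb, Fosl1, Fosl2, Jun, Junb, Jund and the related Atf3) and its small Maf relatives (Maff and Mafk). They were chosen by name: every probe set of the array whose only annotated gene symbol was one of these 10 was taken, which gave 14 probe sets for 10 of the 18193 genes that could be named and tested. Where a gene had more than 1 probe set, the one with the highest mean over all 6 arrays stood for the gene. The samples were cells of the line SVI, mouse podocytes immortalized in a conditional way, differentiated for 1 to 2 weeks at 38 °C in medium with 10% serum. In 1 group the cells were left unstretched, and in the other they underwent cyclic biaxial stretch at 0.5 Hz, with a largest linear strain of 5%, for 3 days. Each group had 3 Affymetrix arrays, whose number limits the precision of every value. Both groups come from the same cell line grown in culture, apart from the capillary wall, blood flow and other cells of the glomerulus. The series states 3 independent batches but not what a batch was, so the p-values rest on differences between arrays that may in part be technical.

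AP-1 proteins bind DNA as pairs held together by a leucine zipper. Jun proteins can pair with each other or with Fos proteins, whereas Fos proteins need a Jun or ATF partner. Fos and Fosb carry strong activation domains, while Fosl1 (Fra-1) and Fosl2 (Fra-2) lack a comparable domain and tend to appear later and last longer after a stimulus. Fos is the classical immediate early gene: serum, growth factors and mechanical stimuli switch it on within minutes through MAP kinases and the serum response factor, and its messenger RNA decays quickly. The small Mafs Maff and Mafk have a zipper but no activation domain and work mainly as partners of CNC factors such as Nfe2l2 (NRF2) or of the repressor Bach1. Podocytes, the epithelial cells that cover the outside of the glomerular capillaries, are exposed to wall tension with each heartbeat.

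Because several of the genes moved together, the 250 bases before the RefSeq start site (build GRCm38.p6) are shown for the called genes that the RefSeq promoter table held, with Fos for comparison. Windows matched for 9 of the 10 genes, 11 windows in all. Each is given 5′ to 3′ on the gene's strand, and capitals mark matches to the motifs named after them.
Fosl2 (chr5:32136222-32136471, plus strand): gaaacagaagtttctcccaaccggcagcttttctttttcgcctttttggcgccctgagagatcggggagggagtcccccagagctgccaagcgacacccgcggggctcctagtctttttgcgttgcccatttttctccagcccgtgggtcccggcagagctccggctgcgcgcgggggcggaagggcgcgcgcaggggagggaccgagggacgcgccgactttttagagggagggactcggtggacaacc
Jun (chr4:95052223-95052472, minus strand): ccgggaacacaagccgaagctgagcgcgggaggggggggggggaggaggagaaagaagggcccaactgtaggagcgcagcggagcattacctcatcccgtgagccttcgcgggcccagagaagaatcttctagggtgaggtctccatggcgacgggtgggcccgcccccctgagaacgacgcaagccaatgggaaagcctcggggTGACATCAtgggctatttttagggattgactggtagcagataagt
Jund (chr8:70697489-70697738, plus strand): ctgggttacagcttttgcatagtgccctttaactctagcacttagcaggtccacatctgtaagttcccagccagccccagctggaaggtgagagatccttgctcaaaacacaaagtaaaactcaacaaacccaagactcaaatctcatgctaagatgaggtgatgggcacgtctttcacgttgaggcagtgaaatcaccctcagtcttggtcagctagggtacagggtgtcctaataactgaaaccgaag
Atf3 (chr1:191183334-191183583, minus strand): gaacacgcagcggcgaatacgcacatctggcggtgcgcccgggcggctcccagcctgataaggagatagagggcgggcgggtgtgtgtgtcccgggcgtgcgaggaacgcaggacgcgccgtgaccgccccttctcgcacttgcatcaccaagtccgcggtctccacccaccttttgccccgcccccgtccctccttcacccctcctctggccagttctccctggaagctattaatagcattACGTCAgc
Fos (chr12:85473640-85473889, plus strand): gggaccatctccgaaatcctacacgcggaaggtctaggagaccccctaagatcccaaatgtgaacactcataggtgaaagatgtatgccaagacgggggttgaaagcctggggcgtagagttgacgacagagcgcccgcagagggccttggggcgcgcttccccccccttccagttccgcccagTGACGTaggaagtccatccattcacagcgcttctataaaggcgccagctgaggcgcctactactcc

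The motifs were searched on both strands in windows of 300 bases, 250 before and 50 after each start. TGAGTCA, the AP-1 site known as TRE, occurred in 0 of the 11 member windows and in 5.2% of the 32851 RefSeq windows. TGACATCA, a variant of it described for Jun, occurred in 2, at 45 bases before the Jun start and 45 bases before a start of Maff, against 3.62% of all windows. TGACGTCA, the CRE, occurred in 1 window of Maff, 29 bases before the start, against 1.79% of all. Its core TGACGT, which every full CRE also contains and which was added after the sequences had been read, occurred in windows of 3 genes, Fos, Atf3 and Maff, against 7.51%. TGACNNNGC, the core of the element bound by CNC and small Maf pairs, which can overlap a TRE, occurred in windows of Maff and Mafk, against 12.4%. The CArG box of serum response factor occurred in 0 member windows and in 1.63% of all. Bases more than 250 before a start were not searched, so a CArG box of Fos or another member further upstream would be missed. The printed Fosl2 and Jund windows held none of these letters. Such matches describe these windows and say nothing of binding.

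After 3 days of stretch, 4 of the 10 genes had risen and 1 had fallen. Fosl1 and Fosl2 of the Fos family and Jun and Jund of the Jun family rose by 1.49-fold to 2.11-fold, while Atf3 fell and was 1.37-fold lower. Fos, Fosb, Junb, Maff and Mafk did not pass the threshold, a Benjamini-Hochberg adjusted p under 0.05 in limma over all genes. Over all 18193 genes tested, 7.98% rose and 6.76% fell, or 14.7% in either direction, so 5 called members of 10 compare with that share. The median log2 change of the 10 was 0.39, against -0.02 over all genes. Since the members were chosen with earlier results of these data known, comparisons with all genes describe them and are not a test. The groups did not overlap in the same 5 genes, in 4 of them with all stretched values higher (16.0% of all genes) and in 1 with all stretched values lower (16.6%). All values below are log2 expression values as deposited, and a change is stretched minus unstretched on that scale.

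**Figure D1:**
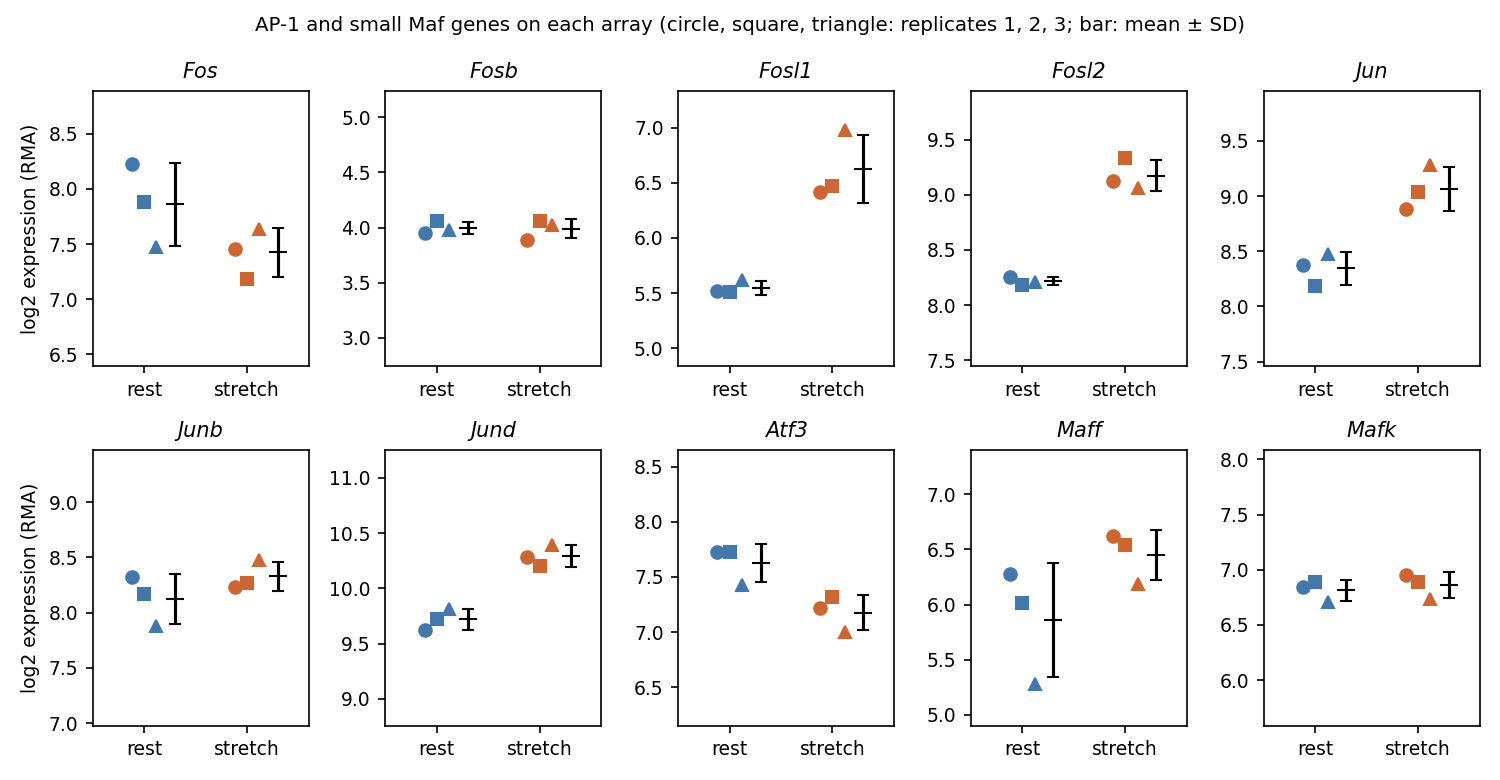
Each panel shows 1 gene, with its log2 expression value on the vertical axis (the same span in every panel) for 3 unstretched arrays (rest, blue) and 3 stretched arrays (orange); circles, squares and triangles are replicates 1, 2 and 3 and the black bars are mean ± SD. Stretched values lie above all unstretched values for Fosl1, Fosl2, Jun and Jund and below them for Atf3, and the groups overlap in the other panels.

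Among the Fos family, Fosl2 had the smallest p of the 10 genes. Its values were 8.26, 8.18 and 8.21 in unstretched cells and 9.13, 9.33 and 9.06 in stretched cells. The groups were far apart, with the 3 unstretched values within 0.08 of each other. Fosl2 rose by 0.96 (SE 0.09, 95% interval 0.75 to 1.16, limma adjusted p = 0.000125, n = 3 per group), which is 1.94-fold. Fosl1, whose product pairs with Jun proteins like that of Fosl2, read 5.52, 5.51 and 5.62 in unstretched cells and 6.42, 6.48 and 6.98 in stretched cells. Here too no values overlapped, and stretched replicate 3 stood highest. Fosl1 rose by 1.08 (SE 0.14, 95% interval 0.77 to 1.38, limma adjusted p = 0.000554), which is 2.11-fold, the largest change among the 10 genes.

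Fos itself did not pass. Its values were 8.23, 7.88 and 7.47 in unstretched cells and 7.45, 7.19 and 7.63 in stretched cells. The unstretched arrays spread over 0.76 log2 units, and unstretched replicate 3 lay below stretched replicate 3. Fos had a log2 change of -0.43 (SE 0.17) with a 95% interval of -0.82 to -0.05 (limma adjusted p = 0.130). Without unstretched replicate 3 it was -0.63 and passed (adjusted p = 0.0184), without unstretched replicate 1 it was -0.25 and did not pass (0.360), and without each of the other arrays the adjusted p lay between 0.122 and 0.345. Fosb, a close relative of Fos that is also induced early, read 3.95, 4.06 and 3.97 in unstretched and 3.89, 4.06 and 4.02 in stretched cells. All 6 values lay below the median of every array (4.92 to 4.98), a dim range in which these data do not separate signal from background, so that a rise or fall from within it is not measured to its full size and a missing change says little. Its log2 change was -0.01 (SE 0.09, 95% interval -0.19 to 0.18, adjusted p = 0.976).

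How far the changes of family members differed was compared within each array, as the log2 ratio of 2 members. Among the 10 pairs within the Fos, Jun and Maf families, 6 shifted without overlap between groups. Their exact two-sided permutation p was 0.1, the smallest that 3 against 3 arrays allow. It became 0.167 after Benjamini-Hochberg adjustment over the 10 pairs, so no pair passed. The ratios reuse the members' own values, so a gene that rose set against a flat one must shift. They were chosen after the values were seen, and how many pairs of other genes separate in this way was not counted. For single genes, 16.0% had all stretched values higher and 16.6% had all stretched values lower. Fosb minus Fosl1 (-1.08) and Fosb minus Fosl2 (-0.96) are among the 6, although Fosb lay in the dim range. Fos minus Fosl2 was -0.03, -0.30 and -0.74 in unstretched and -1.68, -2.14 and -1.42 in stretched cells. That is a shift of -1.39 (SD 0.36 in each group). Fos minus Fosl1 shifted by -1.51 (SD 0.43 unstretched and 0.21 stretched), again with every stretched array lower. The ratio of Fosl1 to Fosl2 overlapped between groups and shifted by 0.12 (SD 0.07 unstretched and 0.41 stretched, exact permutation p = 0.9).

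In the Jun family, Jun, the partner that both Fos proteins and other Jun proteins use, read 8.37, 8.19 and 8.48 in unstretched cells and 8.89, 9.03 and 9.28 in stretched cells. The groups did not overlap. Jun rose by 0.72 (SE 0.12, 95% interval 0.46 to 0.98, limma adjusted p = 0.00235), which is 1.65-fold. Jund, the Jun protein that many resting cells hold, read 9.62, 9.72 and 9.81 in unstretched and 10.29, 10.20 and 10.39 in stretched cells. Each group kept within 0.19 log2 units, and all stretched values were higher. Jund rose by 0.58 (SE 0.09, 95% interval 0.37 to 0.78, limma adjusted p = 0.00207), which is 1.49-fold.

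Junb, which can oppose Jun at some promoters, read 8.32, 8.17 and 7.88 in unstretched and 8.24, 8.27 and 8.48 in stretched cells. The groups overlapped, since unstretched replicate 1 stood above stretched replicates 1 and 2. The log2 change was 0.20 (SE 0.12, 95% interval -0.06 to 0.47, adjusted p = 0.307). It was 0.30 without unstretched replicate 1, 0.082 without unstretched replicate 3 and 0.13 without stretched replicate 3, and passed in none of these. The Jun minus Junb ratio shifted up by 0.52 (SD 0.33 unstretched and 0.08 stretched) without overlap, although the lowest stretched ratio, 0.65, was close to the highest unstretched ratio, 0.60. The Jun minus Jund ratio shifted by 0.14 (SD 0.15 in each group, exact permutation p = 0.3).

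Atf3, a stress-induced factor that pairs with Jun proteins and as a pair with itself represses transcription, went the other way. It read 7.73, 7.72 and 7.43 in unstretched cells and 7.22, 7.32 and 7.00 in stretched cells. All stretched values were lower, but the closest pair, unstretched replicate 3 and stretched replicate 2, lay near each other. Atf3 fell by 0.45 (SE 0.11, 95% interval -0.70 to -0.20, limma adjusted p = 0.0227). The call ended without unstretched replicate 1 (adjusted p = 0.0746) or 2 (0.0784) and without stretched replicate 1 (0.0609) or 3 (0.0931), and it held without unstretched replicate 3 (0.00932) or stretched replicate 2 (0.0292).

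Of the small Mafs, Maff, which is induced by stress and inflammatory signals, read 6.27, 6.02 and 5.28 in unstretched cells and 6.62, 6.54 and 6.19 in stretched cells. Only unstretched replicate 1 reached into the stretched range, and unstretched replicate 3 was the lowest by a wide gap. The log2 change was 0.59 (SE 0.21, 95% interval 0.12 to 1.06, adjusted p = 0.0952). Without unstretched replicate 1 it was 0.80 and passed (limma adjusted p = 0.0338), without unstretched replicate 3 it was 0.30 and did not pass (0.185), and without each of the other arrays the adjusted p was 0.0944 to 0.256. Mafk, the more constant partner, read 6.85, 6.89 and 6.71 against 6.96, 6.89 and 6.73, with a log2 change of 0.05 (SE 0.09, 95% interval -0.16 to 0.25, adjusted p = 0.801). Within arrays, Maff minus Mafk shifted up by 0.55 (SD 0.43 unstretched and 0.12 stretched) without overlap.

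Replicates of the 10 genes differed in how far they spread. The pooled SD within groups was 0.40 for Maff and 0.31 for Fos, wider than in 99.6% and 98.6% of all genes, and 0.22 for Fosl1. It was 0.10 for Fosl2, Jund and Mafk, below the median of 0.12 over all genes. Unstretched replicate 3 gave the lowest unstretched value in 5 genes, Fos, Junb, Atf3, Maff and Mafk, and stretched replicate 3 the highest stretched value in 5, Fos, Fosl1, Jun, Junb and Jund.

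**Figure D2:**
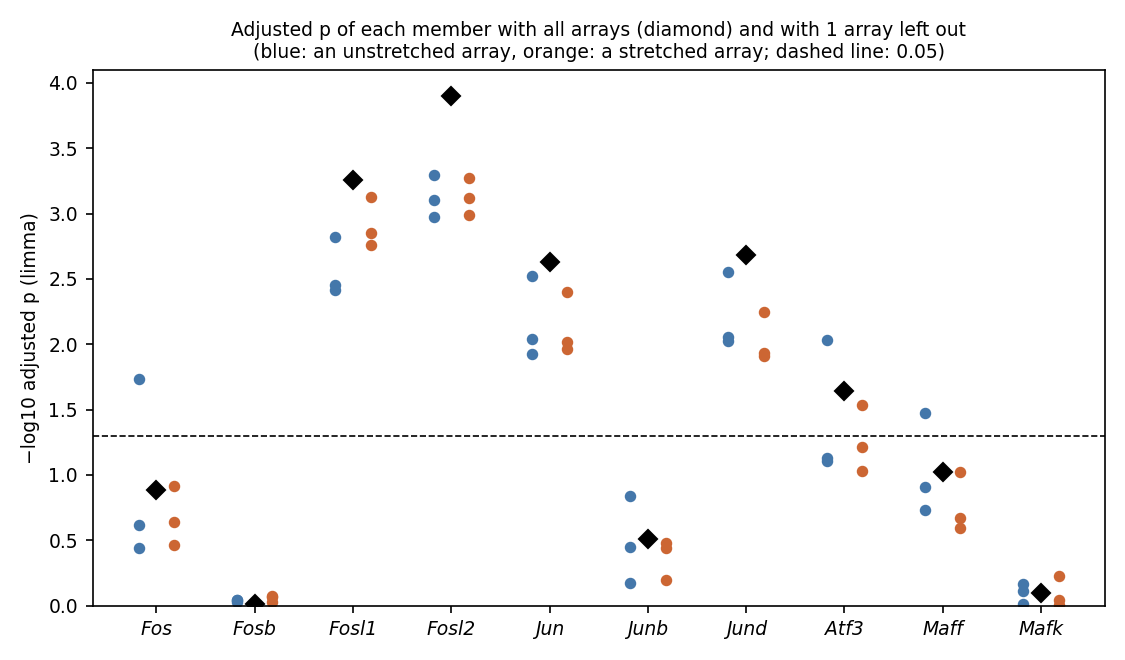
The vertical axis is −log10 of the limma adjusted p of each gene, with all 6 arrays (black diamonds) and with 1 unstretched (blue) or 1 stretched (orange) array left out; the dashed line marks 0.05. Fosl1, Fosl2, Jun and Jund stay above the line in all 6 cases, Atf3 in 2 of 6, and Fos and Maff cross it in 1 case each.

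A second probe set was present for 4 of the genes, Fosl1, Fosl2, Jun and Jund, and in each gene the dimmer probe set had the smaller change. When every probe set was tested, 6 of the 14 member probe sets rose (6.47% of all 45037) and 1 fell (4.51%). For Fosl1, the dimmer probe set read 4.45, 4.53 and 4.68 against 4.96, 5.28 and 5.49, without overlap, and rose by 0.69 (SE 0.13, limma adjusted p = 0.00853). For Jun, the dimmer one read 7.74, 7.67 and 7.61 against 8.15, 7.99 and 8.19, and rose by 0.44 (SE 0.09, limma adjusted p = 0.0128). Both probe sets of Fosl1 and of Jun thus passed in the same direction, but the unstretched values of the dimmer Fosl1 probe set lay below the median of every array, in the dim range, so the size of its rise is uncertain.

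The probe sets of Fosl2 and Jund disagreed. The dimmer Fosl2 probe set read 5.46, 5.66 and 5.79 in unstretched and 5.87, 5.89 and 5.77 in stretched cells, which overlap, with a log2 change of 0.21 (SE 0.10, 95% interval -0.02 to 0.43, adjusted p = 0.249). The gap between the Fosl2 probe sets widened from 2.58 ± 0.19 to 3.33 ± 0.10 (SD, n = 3 each, two-sided exact permutation p = 0.1). The dimmer Jund probe set read 4.97, 4.88 and 4.77 against 4.78, 4.91 and 4.78, around the array medians, with a log2 change of -0.05 (SE 0.09, adjusted p = 0.790). The Jund gap widened from 4.85 ± 0.19 to 5.47 ± 0.16 (SD, n = 3 each, exact permutation p = 0.1). The Fosl2 and Jund calls therefore rest on the brighter probe set, and with probe sets averaged the changes were 0.58 and 0.26, both still past the threshold (limma adjusted p = 0.00134 and 0.0254). Where on the transcripts the probes lie was not analysed here.

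**Figure D3:**
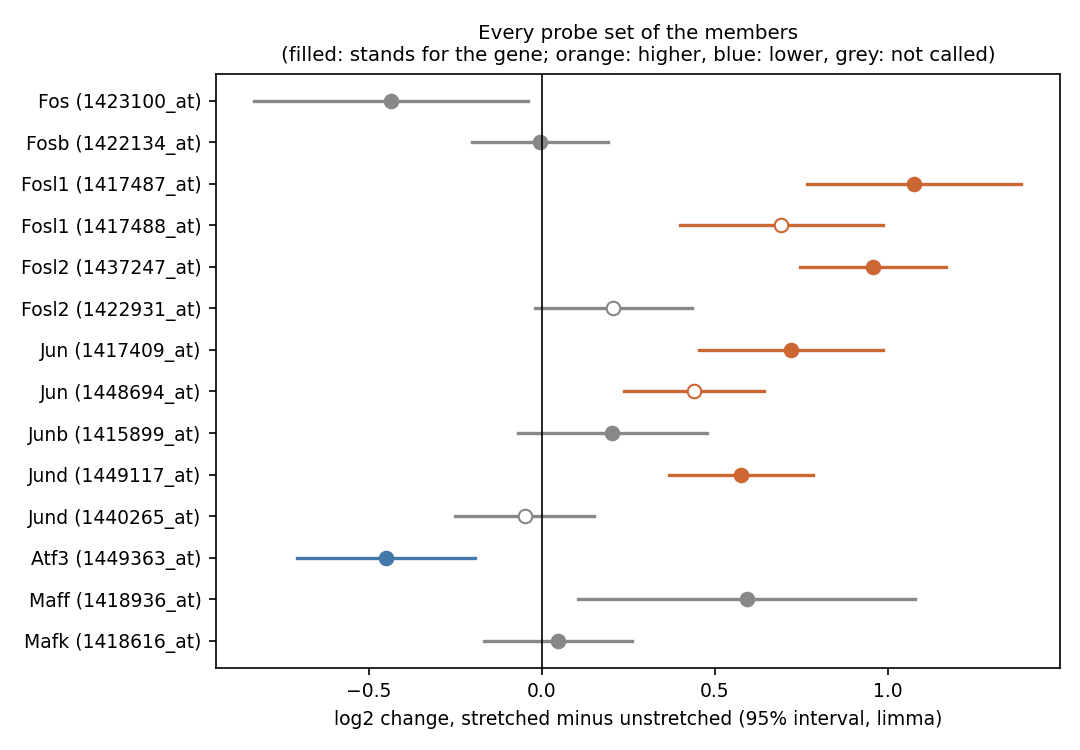
Points are log2 changes, stretched minus unstretched, of all 14 probe sets with 95% intervals from limma; filled points stand for the gene, open points are the dimmer probe sets, and colour marks probe sets that rose (orange), fell (blue) or did not pass (grey). Both probe sets of Fosl1 and of Jun are orange, while the open points of Fosl2 and Jund are grey.

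Other bZIP factors that can pair with AP-1 proteins or bind related sites moved in both directions. In limma 4 of 20 rose, 1 fell and 15 were not called, with a median log2 change of 0.17 against -0.02 over all genes. Over all genes, 7.98% rose and 6.76% fell. Crem, a cAMP-responsive factor with activating and repressing forms, rose by 1.81 (SE 0.15). Creb3l1, a membrane-bound factor that is cleaved to become active, rose by 0.73 (SE 0.14), Creb5 rose by 0.69 (SE 0.19), and Jdp2, a repressive partner of Jun, rose by 0.43 (SE 0.09). The groups overlapped for Creb5, with unstretched replicate 1 at 5.14 and stretched replicate 2 at 5.13. Its unstretched replicates 2 and 3 (4.85 and 4.51) lay below every array median, so the size of its rise is uncertain. Ddit3, a stress-induced partner of C/EBP and ATF proteins, fell by 1.46 (SE 0.11) and was, like Atf3, lower in stretched cells. Atf2 and Atf4 had log2 changes of -0.00 and 0.02 (limma adjusted p = 0.989 and 0.956). Other probe sets of Jdp2 and Creb5 did not pass.

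Among other Maf and CNC factors, 1 of 10 measured rose and 0 fell in limma (median -0.05), against 7.98% and 6.76% of all genes. In the downward direction 1 had an unadjusted p under 0.05. The gene that rose was Bach2, a CNC repressor and small Maf partner, by 0.66 (SE 0.16), and its call ended without unstretched replicate 2 or stretched replicate 1 or 2. Nfe2l2 and its inhibitor Keap1 had log2 changes of -0.25 (adjusted p = 0.102) and 0.05 (0.809), and Mafg, the remaining small Maf, one of -0.55 (limma adjusted p = 0.322). Textbook targets of CNC and small Maf pairs numbered 22, of which 19 were measured. Among these 19, 8 rose and 1 fell (median 0.23), against 7.98% and 6.76% of all genes. Heme oxygenase (Hmox1) rose by 1.15 (SE 0.09), the pentose phosphate enzyme gene Pgd by 0.75 (SE 0.10), the glutathione synthesis genes Gclm and Gclc by 0.44 (SE 0.09) and 0.38 (SE 0.08), and Srxn1 by 0.40 (SE 0.09). Gsta3, a glutathione transferase gene, fell by 1.08 (SE 0.09), and Nqo1 and Txnrd1, common markers of NRF2 activity, had log2 changes of -0.08 and 0.01 (limma adjusted p = 0.653 and 0.965). Gsta3 in stretched cells (4.24 to 4.41) and Nqo1 in both groups (3.83 to 4.14) lay below every array median, so the size of the fall of Gsta3 is uncertain and the value of Nqo1 says little. With genes under the median gene left out, 0 of the list fell. The other probe set of Gclc did not pass. Without stretched replicate 3, 5 of the 19 rose, and without unstretched replicate 2, 2 fell.

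Textbook targets of AP-1 moved in both directions. Rises were called in 8 of 25 and falls in 3 (median 0.10), against 7.98% and 6.76% of all genes. Lox, which crosslinks collagen, rose by 1.14 (SE 0.10), tissue factor (F3) by 0.94 (SE 0.14), the metalloproteinase gene Mmp10 by 0.77 (SE 0.11) and the hyaluronan receptor gene Cd44 by 0.48 (SE 0.09). The metallothionein gene Mt2 fell by 1.86 (SE 0.13) and cyclin D1 (Ccnd1) fell by 0.96 (SE 0.20). Mmp3, Mmp9, Mmp13 and Il6, often used as AP-1 reporters, had log2 changes of -0.02, -0.05, -0.22 and 0.09 and did not pass. All 4 lay in the dim range below the array medians, with means over the 6 arrays of 4.14, 4.59, 3.30 and 3.35, so these values say little about them. The rises numbered 4 without stretched replicate 1 and 5 without stretched replicate 2.

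Upstream of AP-1, 3 of 28 genes rose and 5 fell (median 0.03), against 7.98% and 6.76% of all genes. The list held MAP kinases and their activators, the ternary complex factors that switch on Fos with serum response factor, and enzymes that degrade Jun and Fos. Elk3, a ternary complex factor that can repress Fos, rose by 0.85 (SE 0.09), the Jun ubiquitin ligase gene Itch by 0.48 (SE 0.09) and the ERK activator Map2k1 by 0.40 (SE 0.08). Elk1, an activating relative of Elk3, fell by 0.45 (SE 0.10), the p38 activator Map2k6, dim in stretched cells, fell by 0.71 (SE 0.09), and Map3k1, which feeds the JNK pathway, fell by 0.56 (SE 0.10). Other probe sets of Elk1 and Itch did not pass. The falls numbered 3 without unstretched replicate 2 or stretched replicate 2 or 3, with arrays centred on their medians, and when every probe set was tested.

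Other immediate early genes were also divided. Of 17 measured, 4 rose and 5 fell (median -0.08), against 7.98% and 6.76% of all genes. Egr1 fell by 1.47 (SE 0.13) and Egr2 fell by 1.10 (SE 0.10). Egr2 was dim, with 4.95 its highest unstretched value and 3.63, 3.70 and 3.71 in stretched cells, all 6 below the median of their own array, and with genes under the median gene left out 4 of the list fell. In contrast, the MAP kinase phosphatase gene Dusp1 rose by 1.69 (SE 0.21), Nr4a1 by 0.82 (SE 0.09), Ier5 by 0.79 (SE 0.08) and Klf6 by 0.63 (SE 0.11). Without stretched replicate 1, 3 fell. Over all lists, 43 genes other than the members were called, 28 of them had other probe sets, in 19 a further probe set was called the same way and in 1 the opposite way. That gene was Nr4a2, chosen for mention after its values were seen, whose brightest probe set fell by 0.38 (SE 0.09) while 4 of its other 5 rose. The changes of those 5 ran from -0.00 to 1.71, so the direction of Nr4a2 depends on the probe set. With probe sets averaged, 5 of the immediate early genes rose and 4 fell.

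**Figure D4:**
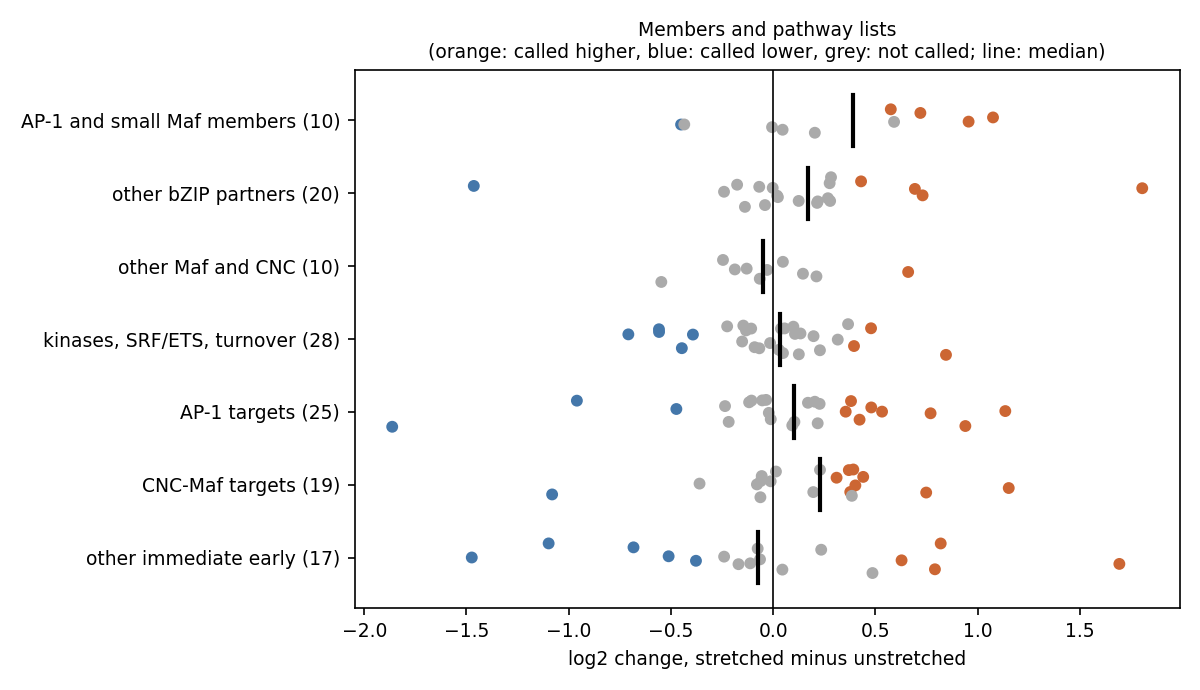
Each point is 1 gene's log2 change, stretched minus unstretched, in the 10 members and in 6 pathway lists (number measured in brackets); orange points rose, blue points fell, grey points did not pass, and the black line is the list's median. The members' median is 0.39, and the lists of upstream genes and of immediate early genes spread to both sides of 0.

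As a description over the same 6 arrays, the genes whose profile was most like that of Fosl2, the member with the highest moderated statistic, were Wnt7a (Pearson r = 0.998), Cenph (0.994), Rab11b (0.994), Sipa1l2 (0.994) and Ext1 (0.993). For Atf3, the member with the lowest, they were Hspb8 (0.997), Cyb5r1 (0.996), Pcm1 (0.994), Mettl2 (0.993) and Zdhhc4 (0.993). They were ranked among 4379 genes with an SD over the 6 arrays of at least 0.2. Since the 6 values fall into the 2 groups, any gene with a clear difference between groups scores high, and no p is given.

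Across all probe sets, arrays correlated at 0.993 to 0.997 within groups and at 0.987 to 0.990 between them. The gap between 3′ and 5′ control probe sets reflects RNA quality and labelling. For beta-actin it was on the log2 scale 1.57 ± 0.03 in unstretched and 1.30 ± 0.05 in stretched cells (SD, n = 3 each), without overlap. For Gapdh it was 0.25 ± 0.07 in unstretched and 0.16 ± 0.10 in stretched cells (SD, n = 3 each), and the groups overlapped. The part of these gaps in the members' changes was not tested. Of the podocyte markers, Wt1, Synpo, Podxl and Cd2ap were above the median gene and Nphs1 and Ptpro below it; Synpo fell by 0.45 (SE 0.08, limma adjusted p = 0.00412) and the other 5 did not pass. Of other cell types' markers, 0 of 7 endothelial, 1 of 7 tubule, 1 of 5 fibroblast, 2 of 7 leukocyte and 3 of 5 mesangial genes were above it. The log2 summed level of the leukocyte list was 10.13 to 10.25 in unstretched and 10.40 to 10.59 in stretched cells, with Cd14 higher and Cd68 and Csf1r lower. That of the mesangial list was 13.40 to 13.43 and 13.55 to 13.59, and that of the fibroblast list 8.69 to 8.93 and 7.63 to 7.85. Most of the mesangial sum came from Acta2 (means 13.35 unstretched and 13.50 stretched), which did not pass (limma adjusted p = 0.260). Pdgfrb of that list rose by 0.41 (SE 0.09), and Cubn of the tubule list rose by 0.49 (SE 0.12). Cubn in unstretched cells (4.49 to 4.73) and Cd68 in stretched cells (4.51 to 4.70) lay below every array median, so the sizes of these changes are uncertain. In the fibroblast list Dcn fell (8.47 ± 0.18 in unstretched and 6.97 ± 0.20 in stretched cells, SD, n = 3 each), and the other 4, Col1a1, Col3a1, Thy1 and Pdgfra, were below the median gene and did not pass. Their part in the results was not tested, and fewer cells of a type cannot be told apart from less RNA per cell.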

How the data were processed

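The deposited table held log2 expression values for 45101 probe sets on 6 Affymetrix arrays. RMA made them, per the submitters' processing notes; it usually corrects background, quantile normalizes and summarises probes. No version and no genome build is given in the sources used here. RMA shrinks changes of dim probe sets and levels the arrays, which hides any change in total RNA. Detection calls were not used here. Controls (64 probe sets) were left out, 34945 probe sets had 1 symbol, 932 several and 9160 none, and 9010 genes had more than 1 probe set.

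Groups and replicate numbers came from the sample titles. limma 3.58.1 (lmFit, eBayes; R 4.3.3) was fitted to all genes without covariates and, separately, to all probe sets. Members and lists were chosen with earlier results of these data known. The rule named all members, up to 6 called genes of each of the 6 other lists, and the 5 genes most alike to the top and bottom member; genes named beside them that did not pass, and the within-family ratios, were chosen after their values were seen. Steps were tested on simulated data. Alternatives were replicate blocks, each array left out, a dim-gene filter, 2 other scalings, averaged or separate probe sets, a different prior and a minimum change of 0.5.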

Additional observations from a re-analysis of the deposited data

How the results depend on the processing

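Fosl1, Fosl2, Jun and Jund kept their direction and their call under all 15 alternatives, with log2 changes of 0.88 to 1.18, 0.58 to 1.01, 0.58 to 0.81 and 0.26 to 0.62. The replicate blocks, the dim-gene filter, separate probe sets, the different prior and the minimum change do not alter a log2 change. Under these the direction was fixed and only the call could differ. The dim-gene filter left out Fosb. Leaving out each array in turn gave 4 to 5 members higher and 0 to 2 lower, 5 to 6 member probe sets higher and 0 to 2 lower, and 872 to 1450 genes higher and 767 to 1189 lower. Asking for a change of at least 0.5 left 4 members higher and 0 lower, 0 member probe sets lower, and 683 genes higher and 492 lower. Atf3, with its change of -0.45, lies under that size. So do Fos, Fosb, Junb and Mafk, which did not pass without it either. In the lists, the rises then numbered 4 for AP-1 targets and 2 for CNC and small Maf targets, and of the upstream genes 1 rose and 3 fell. Scaling moved the split over all genes: 1452 higher and 1229 lower as deposited, 1149 and 1544 when quantile normalized again, and 1666 and 1028 with arrays centred on medians, while members stayed at 4 and 1.

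Replicate numbers were not taken to pair the arrays, because the labels do not say that a number marks a shared batch. Deviations of same-numbered arrays correlated at 0.02, 0.15 and 0.28, and those of differently numbered arrays at -0.24 to 0.11. Not every array correlated best with its own number. Whether the numbers mark batches cannot be told from these values, so both fits are given. With the replicate number as a fixed block, 5 members rose and 1 fell, the added one being Maff (limma adjusted p = 0.00738), and 1683 genes rose and 1419 fell; of the upstream genes 5 rose. With it as a random block the members' counts were 4 and 1, while 1754 genes rose and 1529 fell. Depth cannot be stated for these arrays; without detection calls, Fosb, the dimmer Jund probe set and, in unstretched cells, the dimmer Fosl1 probe set cannot be told from background.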
